A study of Mus musculus with 4 samples.

Results

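The 10 genes described here carry out antigen presentation by MHC class I in the mouse, and they were taken as a fixed list of heavy chains (H2-K1, H2-D1, H2-T23), the light chain (B2m), peptide loading genes (Tap1, Tap2, Tapbp) and immunoproteasome subunits (Psmb8, Psmb9, Psmb10) out of 55401 genes in each table. All 10 were found by symbol and all 10 passed the filter on low counts. RNA came from mouse optic nerves, with 2 libraries of genotype Dor WT and 2 of genotype Dor cKO, a conditional mutant. The optic nerve holds the axons of retinal ganglion cells with oligodendrocytes, astrocytes, microglia, vessels and a meningeal sheath. The study is about Dor in mature oligodendrocytes and myelination. Strain, sex, age, treatment, the promoter that drives the deletion and the number of animals behind a library are not given in the sources used here. With no word of separate animals, p-values measure only the spread between these libraries, which may be technical. The tables of the Dor WT libraries are named with what may be an age, and the others are not, so age or batch and genotype cannot be told apart.

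MHC class I molecules show fragments of a cell's own proteins at its surface, where CD8 T cells and natural killer cells read them. The proteasome cuts the proteins, the TAP1 and TAP2 transporter moves the peptides into the endoplasmic reticulum, tapasin (Tapbp) holds the transporter and the empty heavy chain together, and the light chain beta-2 microglobulin (B2m) is needed for the complex to reach the surface. Interferon raises the whole set and exchanges 3 catalytic subunits of the proteasome for inducible ones. In the healthy central nervous system class I is known to be low in neurons and oligodendrocytes and higher in endothelium, microglia and meningeal cells.

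Total expected counts were between 17263830 and 21595832 per library. The oligodendrocyte markers marked the tissue, with a summed level of 23349 to 23576 TPM (the deposited level per transcript length) in Dor WT and 13221 to 13283 TPM in Dor cKO, and 8 of 8 fell. Trp53inp2, an autophagy and transcription cofactor gene also known as Dor, stood at 138 and 133 CPM (counts scaled to library size) in Dor WT, against 105 and 107 CPM in Dor cKO. Its log2 fold change was -0.36 (SE 0.04, edgeR adjusted p = 2.74e-08), and the part of the gene that was deleted is not given in the sources used here. Markers of the pituitary, which lies near the nerves at the base of the brain, summed to 88.3 to 93.6 TPM in Dor WT and 3.23 to 4.31 TPM in Dor cKO, and 5 of 5 tested fell. The part of such differences in tissue content in the results below was not tested.

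All 10 class I presentation genes were higher in Dor cKO at an edgeR adjusted p under 0.05 and 0 were lower. Over all 16751 genes tested, 14.3% were called higher and 13.4% lower, 27.7% in all. The list was chosen with earlier results of these data known, so its count is no independent test against these shares. DESeq2 also called 10 higher, limma on log2(TPM + 1) called 6, and edgeR called 8 without Dor cKO replicate 2. The log2 fold changes (Dor cKO minus Dor WT) of the 10 lay between 0.36 and 0.90 with a median of 0.51, against a median of -0.00362 for all tested genes. In CPM the groups did not overlap for any of the 10, a pattern shown by 30.2% of all tested genes in this direction. In bulk RNA, more cells of a type that expresses these genes and more RNA per cell cannot be told apart.

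**Figure D1:**
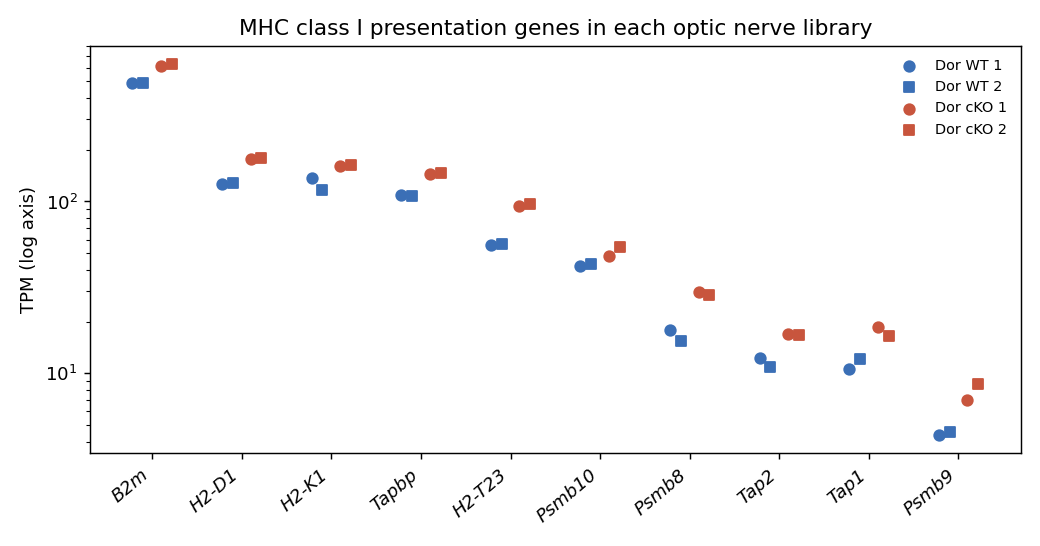
TPM (log axis) of the 10 class I presentation genes in each library, ordered by the mean in Dor WT. Blue marks are the 2 Dor WT libraries and red marks the 2 Dor cKO libraries. For each gene both red marks lie above both blue marks, and levels run from B2m, at 486 to 627 TPM, to Psmb9, at 4.39 to 8.62 TPM.

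Per transcript length, B2m had the highest level, with a mean of 488 ± 2.26 TPM in Dor WT and 621 ± 8.19 TPM in Dor cKO (SD, n = 2 per group). The classical heavy chains followed, H2-D1 at 127 ± 0.460 and H2-K1 at 127 ± 14.1 TPM in Dor WT, and these values did not differ beyond their spread. Tapbp stood next at 109 ± 0.721 TPM and H2-T23 at 56.0 ± 0.665 TPM in Dor WT. Psmb10 was the most abundant inducible subunit, at 42.7 ± 0.735 TPM in Dor WT, above Psmb8 at 16.7 ± 1.77 TPM and Psmb9 at 4.47 ± 0.113 TPM. The transporter genes Tap2 (11.6 ± 1.04 TPM) and Tap1 (11.4 ± 1.04 TPM) overlapped in Dor WT. In Dor cKO the order was the same down to Psmb8, with Tap1 (17.5 ± 1.36 TPM) and Tap2 (16.8 ± 0.113 TPM) again within their spread and Psmb9 last at 7.82 ± 1.14 TPM.

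The promoters of H2-K1, B2m, H2-T23, Psmb8 and Tap1 are printed because these genes represent the heavy chain, light chain, immunoproteasome and transporter groups that rose together. Sequences are the 250 bases before the annotated start from RefSeq on GRCm38.p6, 5′ to 3′ in the direction of transcription, with capitals for matches to the core of the interferon regulatory factor (IRF) motif (AANNGAAA), the interferon-gamma activated site known as GAS (TTCNNNGAA) and the kappaB motif on either strand. The table matched 9 of the 10 genes. Gene spans given below are from GENCODE, whose starts can differ from those of RefSeq. The windows of H2-D1, Tapbp, Psmb8 and Psmb9 lie within those spans, as does most of that of H2-T23. Coordinates are chr17:34000348-34000597 on the minus strand for H2-K1, chr2:122147437-122147686 on the plus strand for B2m, chr17:36032702-36032951 on the minus strand for H2-T23, chr17:34197945-34198194 on the plus strand for Psmb8 and chr17:34187306-34187555 on the plus strand for Tap1.
H2-K1: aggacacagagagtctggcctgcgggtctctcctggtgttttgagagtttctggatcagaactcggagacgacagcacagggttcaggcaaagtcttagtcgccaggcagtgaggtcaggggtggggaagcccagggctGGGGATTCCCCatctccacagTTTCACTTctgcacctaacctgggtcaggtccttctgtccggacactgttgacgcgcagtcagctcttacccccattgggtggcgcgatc
B2m: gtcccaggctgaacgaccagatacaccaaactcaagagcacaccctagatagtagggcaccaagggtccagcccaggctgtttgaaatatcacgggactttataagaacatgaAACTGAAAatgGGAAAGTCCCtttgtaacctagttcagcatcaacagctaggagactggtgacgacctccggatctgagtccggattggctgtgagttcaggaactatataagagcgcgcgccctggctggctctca
H2-T23: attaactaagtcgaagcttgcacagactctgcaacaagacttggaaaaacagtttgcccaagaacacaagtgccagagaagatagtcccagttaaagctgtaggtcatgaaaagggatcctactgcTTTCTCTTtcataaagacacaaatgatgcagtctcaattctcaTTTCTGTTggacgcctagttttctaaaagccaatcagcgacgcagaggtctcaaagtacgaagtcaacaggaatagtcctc
Psmb8: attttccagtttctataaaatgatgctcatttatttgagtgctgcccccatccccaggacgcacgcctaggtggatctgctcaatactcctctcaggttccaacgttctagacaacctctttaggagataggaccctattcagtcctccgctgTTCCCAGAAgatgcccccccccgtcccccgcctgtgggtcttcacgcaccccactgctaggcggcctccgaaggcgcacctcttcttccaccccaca
Tap1: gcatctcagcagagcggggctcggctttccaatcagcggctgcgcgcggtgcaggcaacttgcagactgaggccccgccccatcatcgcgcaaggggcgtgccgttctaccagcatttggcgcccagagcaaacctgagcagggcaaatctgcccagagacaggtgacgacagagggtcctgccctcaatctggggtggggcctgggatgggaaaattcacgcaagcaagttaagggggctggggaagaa

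The IRF core lay in 4 of the 9 promoters (H2-D1, H2-K1, H2-T23 and B2m), against 21.3% of all 32851 promoter windows of this length. The longer core of the interferon-stimulated response element, GAAA repeated after a gap of 2 bases, contains the IRF core. It lay in those of H2-T23 and B2m and in 2.98% of all windows. A kappaB match lay in H2-D1, H2-K1 and B2m (7.25% of all windows), and TTCNNNGAA in Psmb8 alone of the 9 (7.02% of all windows). CCAAT, the core of the Y box bound by NF-Y, lay in 7 of the 9 (33.8% of all windows), and TGACG, a part of the X box, in 5 (17.8% of all windows). For each of these motifs 1 site lies in the overlap of the Tap1 and Psmb9 windows and is counted for both genes. Of the constitutive counterparts, 2 matched the table: TGACG lay in both (Psmb5 and Psmb6) and the IRF core in Psmb6. H2-K1 and H2-D1 shared a run of 47 identical bases that holds the kappaB match, placed 60 bases nearer to the RefSeq start in H2-K1. These matches describe letters in the windows and show no binding.

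The heavy chains bind the peptide. H2-K1 (ENSMUSG00000061232.16; GRCm38 chromosome 17, 33996017 to 34000347), a classical heavy chain read by CD8 T cells, stood at 95.1 and 92.0 CPM in Dor WT, against 132 and 133 CPM in Dor cKO. It rose by 0.51 (SE 0.04, edgeR adjusted p = 4.20e-11), 1.42-fold. H2-D1 (ENSMUSG00000073411.12; chromosome 17, 35262730 to 35267499), the other classical heavy chain, stood at 153 and 151 CPM in Dor WT, against 213 and 214 CPM in Dor cKO. Its rise of 0.49 (SE 0.03, edgeR adjusted p = 3.88e-13) was close to that of H2-K1. H2-T23 (ENSMUSG00000067212.8; chromosome 17, 36029773 to 36032855) encodes Qa-1, a nonclassical heavy chain that is a ligand of an inhibitory receptor on natural killer cells. Its CPM values were 46.9 and 47.7 in Dor WT, against 81.7 and 84.3 in Dor cKO, and the rise of 0.81 (SE 0.06, edgeR adjusted p = 1.20e-12), 1.75-fold, was the largest of the 3 heavy chains in the list. Whether it differed from the rises of H2-K1 and H2-D1 was not tested.

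Heavy chain genes are alike in sequence, so reads can be shared among them. The posterior standard deviation of the count in the deposited tables was at most 0.0455% of the count for H2-K1, H2-D1 and H2-T23 in any library. Summed over 24 class I heavy chain genes of the H2-D, H2-K, H2-Q, H2-T and H2-M series that code for protein, of which 14 had counts, there were 7122 and 8674 counts in Dor WT, against 12118 and 12080 in Dor cKO. This sum, which does not depend on how reads are shared within the family, rose by 0.52 (SE 0.02, edgeR adjusted p = 3.35e-17), 1.43-fold. H2-K1, H2-D1 and H2-T23 together made up 72.0% and 72.9% of the sum in Dor WT, against 74.1% and 74.3% in Dor cKO.

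Of 22 other genes with a class I fold, 13 were tested, 8 rose, 1 fell and 4 missed the threshold, and the median of their log2 fold changes was 0.48. The count of 8 was 4 with limma and 4 with the coefficient of variation set. Fcgrt, which encodes the heavy chain of the neonatal Fc receptor and pairs with beta-2 microglobulin without presenting peptide, rose by 0.48 (SE 0.03, edgeR adjusted p = 1.16e-13). H2-Q4, a nonclassical heavy chain gene, rose by 0.54 (SE 0.08, edgeR adjusted p = 2.31e-06), H2-T22, a ligand of some gamma-delta T cells, by 0.30 (SE 0.06, edgeR adjusted p = 5.07e-04) and Hfe, a regulator of iron uptake, by 0.34 (SE 0.07, edgeR adjusted p = 5.66e-04). H2-Q2, named after its values were seen as the 1 gene that fell, stood at 21 and 22 counts in Dor WT, against 8 and 8 in Dor cKO. Its log2 fold change was -1.51 (SE 0.56, edgeR adjusted p = 0.0431), and the call was lost without any 1 of the 4 libraries, without a low-count filter and in DESeq2.

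B2m (ENSMUSG00000060802.8; chromosome 2, 122147686 to 122153083) stood at 203 and 201 CPM in Dor WT, against 262 and 268 CPM in Dor cKO. It rose by 0.39 (SE 0.03, edgeR adjusted p = 5.23e-12), 1.31-fold, a smaller value than that of the summed heavy chains. The TPM of B2m divided by that of the summed heavy chains was 1.15 and 1.22 in Dor WT, against 1.09 and 1.10 in Dor cKO, lower in both Dor cKO libraries. Where the biological coefficient of variation was fixed at 0.1, the B2m call was lost (0.39, edgeR likelihood ratio test adjusted p = 0.0664).

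**Figure D2:**
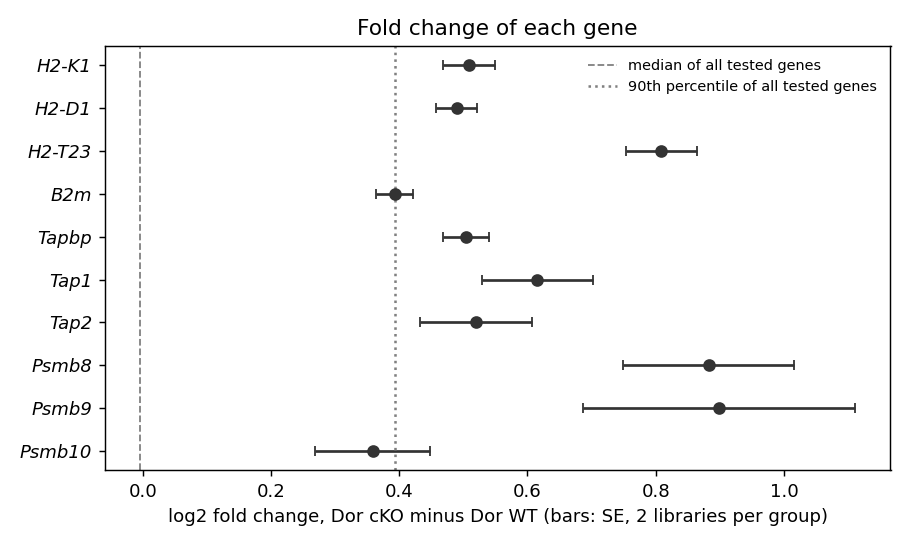
Log2 fold change of each gene, Dor cKO minus Dor WT, with its standard error, from the edgeR fit over all tested genes with 2 libraries per group. The dashed line is the median and the dotted line the 90th percentile (0.39) of all tested genes. Psmb8, Psmb9 and H2-T23 lie highest, and B2m and Psmb10 lie near the dotted line.

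The peptide loading genes rose by similar sizes. Tapbp (ENSMUSG00000024308.15; chromosome 17, 33915899 to 33929292), which encodes tapasin, stood at 136 and 146 CPM in Dor WT, against 203 and 198 CPM in Dor cKO, and rose by 0.50 (SE 0.04, edgeR adjusted p = 2.22e-12), 1.42-fold. Tap1 (ENSMUSG00000037321.17; chromosome 17, 34187553 to 34197225), one chain of the peptide transporter, stood at 19.8 and 20.7 CPM in Dor WT, against 31.8 and 30.4 CPM in Dor cKO. It rose by 0.62 (SE 0.09, edgeR adjusted p = 1.56e-06), 1.53-fold. Tap2 (ENSMUSG00000024339.12; chromosome 17, 34203527 to 34216321), the partner chain, stood at 22.8 and 20.3 CPM in Dor WT, against 31.1 and 30.5 CPM in Dor cKO, and rose by 0.52 (SE 0.09, edgeR adjusted p = 2.43e-05), 1.43-fold. For both chains the Dor cKO libraries lay above the Dor WT libraries, a pattern shown by 30.2% of all tested genes. Zbtb22, named as a gene that lies within the span of Tapbp on the same strand, had a log2 fold change of -0.01, and the posterior standard deviation of the Tapbp count was at most 0.158% of the count.

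Of 11 matched partners that fold heavy chains or trim peptides, 3 rose, 1 fell and 7 did not pass, with a median of -0.00724. The count of 3 was 0 with limma, 1 with the coefficient of variation set and 5 once the trend with length and GC was removed, and without Dor WT replicate 1 or Dor cKO replicate 2 it was 2. Tapbpl, a homologue of tapasin that edits bound peptides, stood at 9.89 and 13.6 CPM in Dor WT, against 15.6 and 17.6 CPM in Dor cKO, and rose by 0.48 (SE 0.13, edgeR adjusted p = 0.00704). That call was lost without Dor WT replicate 1 (0.28, edgeR adjusted p = 0.143) or Dor cKO replicate 2 (0.39, edgeR adjusted p = 0.103). Erap1, the aminopeptidase that trims peptides in the endoplasmic reticulum, rose by 0.29 (SE 0.06, edgeR adjusted p = 1.50e-04), but on the log2(TPM + 1) scale its value was -0.31 (limma adjusted p = 0.382). Calr, the chaperone calreticulin of the loading complex, rose by 0.17 (SE 0.02, edgeR adjusted p = 5.00e-07), and the cytosolic aminopeptidase gene Lap3 fell by 0.20 (SE 0.06, edgeR adjusted p = 0.00739). The Lap3 call was lost without Dor WT replicate 1 (-0.15, edgeR adjusted p = 0.0845) or Dor cKO replicate 1 (-0.18, edgeR adjusted p = 0.0683) and with DESeq2 (adjusted p = 0.0674).

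The immunoproteasome subunits replace constitutive ones in newly built proteasomes and change which peptide ends are cut. Psmb8 (ENSMUSG00000024338.15; chromosome 17, 34197721 to 34201454), the inducible counterpart of Psmb5, stood at 9.09 and 7.68 CPM in Dor WT, against 15.4 and 15.4 CPM in Dor cKO, and rose by 0.88 (SE 0.13, edgeR adjusted p = 5.15e-06), 1.84-fold. Psmb9 (ENSMUSG00000096727.3; chromosome 17, 34181987 to 34187764), the counterpart of Psmb6, stood at 3.22 and 3.27 CPM in Dor WT, against 5.52 and 6.59 CPM in Dor cKO. It rose by 0.90 (SE 0.21, edgeR adjusted p = 0.00153), 1.86-fold, on 56 to 137 counts per library. Psmb10 (ENSMUSG00000031897.9; chromosome 8, 105935735 to 105938444), the counterpart of Psmb7, stood at 22.8 and 21.1 CPM in Dor WT, against 26.5 and 29.6 CPM in Dor cKO, and rose by 0.36 (SE 0.09, edgeR adjusted p = 0.00286), 1.28-fold. Without Dor cKO replicate 2, the calls of Psmb9 (0.77, edgeR adjusted p = 0.0534) and Psmb10 (0.28, edgeR adjusted p = 0.0891) were lost. The Psmb10 call was also lost with the coefficient of variation set at 0.1 (0.36, edgeR likelihood ratio test adjusted p = 0.149).

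Their constitutive counterparts did not rise. Psmb5 stood at 92.1 and 83.8 CPM in Dor WT, against 84.2 and 83.8 CPM in Dor cKO (log2 fold change -0.06, SE 0.05, edgeR adjusted p = 0.404). Psmb7 stood at 110 and 110 CPM in Dor WT, against 102 and 103 CPM in Dor cKO (-0.10, SE 0.04, edgeR adjusted p = 0.062). Psmb6 fell by 0.16 (SE 0.04, edgeR adjusted p = 0.00534), a call that missed the threshold in DESeq2 (adjusted p = 0.0608) or without Dor cKO replicate 2 (edgeR adjusted p = 0.0518). Psmb5 was called lower once the trend with length and GC was removed (-0.13, edgeR adjusted p = 0.0489), and Psmb7 with total count scaling (-0.12, edgeR adjusted p = 0.0241). The TPM of Psmb8 was 8.59% and 8.08% of that of Psmb5 in Dor WT, against 16.1% and 15.3% in Dor cKO, 1.89-fold higher. For Psmb9 against Psmb6 the ratio was 1.59% and 1.68% in Dor WT, against 2.96% and 3.67% in Dor cKO, 2.02-fold higher. For Psmb10 against Psmb7 it was 23.96% and 24.4% in Dor WT, against 30.2% and 33.8% in Dor cKO, 1.32-fold higher. Both Dor cKO libraries were above both Dor WT libraries for each of the 3 pairs, and the 2-sided exact permutation test gave 0.333 for each, the smallest p that 2 against 2 libraries allow.

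**Figure D3:**
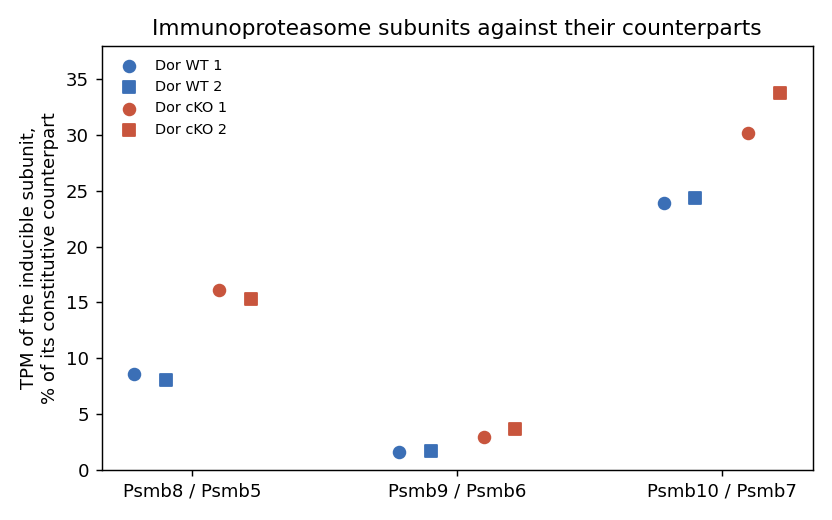
TPM of each inducible subunit as a percentage of the TPM of the constitutive subunit it replaces, per library (blue Dor WT, red Dor cKO). The red points lie above the blue points in each pair, and Psmb10 stands highest relative to its counterpart in both groups.

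The rest of the proteasome did not follow the inducible subunits. Of 11 other subunits of the core particle, 0 rose, 6 fell and 5 did not pass, with a median of -0.15. Psmb1, a structural beta subunit, fell by 0.25 (SE 0.04, edgeR adjusted p = 5.98e-05), and the alpha ring genes Psma2, Psma3 and Psma7 fell by 0.22, 0.15 and 0.19. The calls of Psma2 and Psma3 were lost once the trend with length and GC was removed, and that of Psma3 also with DESeq2 and without Dor WT replicate 2. The count of 6 was 3 with DESeq2, 2 with limma on log2(TPM + 1), 0 with the coefficient of variation set at 0.1 and 4 without Dor cKO replicate 2. Of 18 genes of the regulatory particle, which unfolds tagged proteins, 0 rose and 5 fell (median -0.07), among them Psmd6 by 0.30 (SE 0.05), Psmc6 by 0.26 (SE 0.05), Psmc2 by 0.15 (SE 0.05) and Psmd2 by 0.09 (SE 0.03). The Psmc2 and Psmd2 calls were lost in DESeq2 (adjusted p = 0.149 and 0.225) and without Dor WT replicate 1, Dor cKO replicate 1 or Dor cKO replicate 2 (edgeR adjusted p = 0.088 to 0.145 for Psmc2 and 0.0673 to 0.429 for Psmd2). Without Dor WT replicate 1 the log2 fold change of Psmd2 was -0.04. Removal of the trend with length and GC ended the Psmc2 call (edgeR adjusted p = 0.224), and that of Psmd2 was lost without a low-count filter (edgeR adjusted p = 0.0654) or the robust option (edgeR adjusted p = 0.0555). That count was 3 with DESeq2, 1 with limma, 0 with the coefficient of variation set, 8 with total count scaling, 3 without Dor WT replicate 1 and 2 without Dor cKO replicate 2. Of 9 other regulators and assembly factors, 1 rose and 1 fell. Psme1, a subunit of the interferon-inducible activator, rose by 0.22 (SE 0.06, edgeR adjusted p = 0.00854), a call lost without Dor cKO replicate 2 (0.18, edgeR adjusted p = 0.134), with DESeq2 (adjusted p = 0.0761) and after removal of the length and GC trend (edgeR adjusted p = 0.0534). Pomp, which assembles new proteasomes, fell by 0.15 (SE 0.05, edgeR adjusted p = 0.0399), a call that did not hold in DESeq2 (adjusted p = 0.200), without a low-count filter (edgeR adjusted p = 0.0567) and without Dor WT replicate 1, Dor cKO replicate 1 or Dor cKO replicate 2 (edgeR adjusted p = 0.13 to 0.215).

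**Figure D4:**
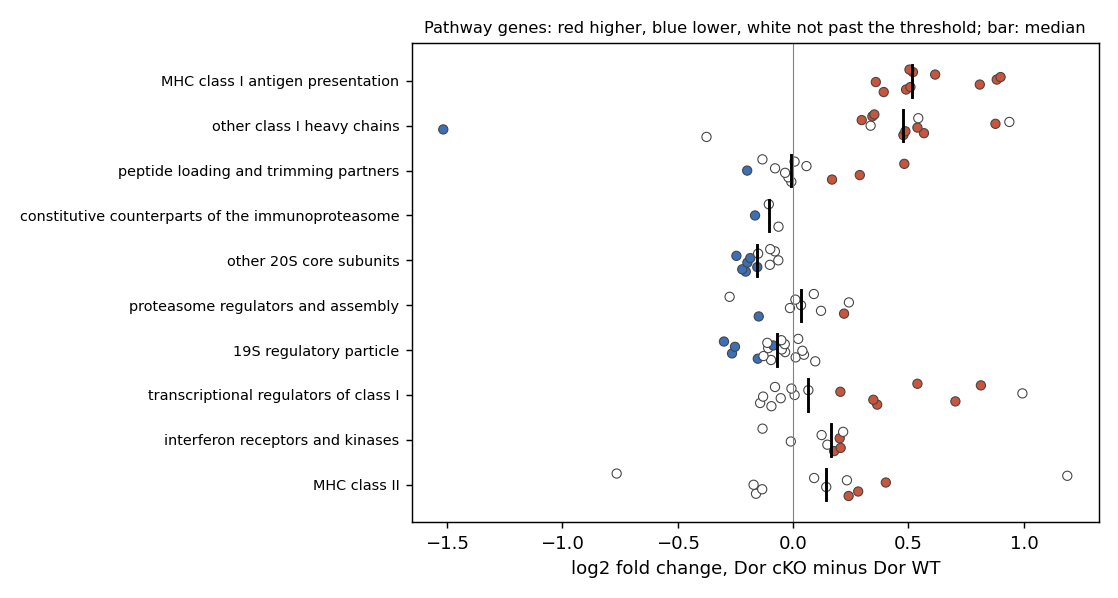
Log2 fold change (Dor cKO minus Dor WT) of each tested gene in the lists of the class I pathway, with red marks for higher, blue for lower and white for genes not past the threshold; black bars are list medians. The 10 presentation genes are all red with a median of 0.51, whereas no other core subunit of the proteasome is red.

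Among 15 transcriptional regulators of class I, 6 rose, 0 fell and 9 did not pass (median 0.07). The count of 6 was 2 with limma and 4 with DESeq2, with the coefficient of variation set, and without Dor WT replicate 2 or Dor cKO replicate 2. The median ranged from 0.01 without Dor WT replicate 1 to 0.17 without Dor WT replicate 2. Irf9, a subunit of the complex that binds interferon response elements, stood at 28.9 and 23.7 CPM in Dor WT, against 41.0 and 44.2 CPM in Dor cKO, and rose by 0.70 (SE 0.08, edgeR adjusted p = 1.27e-07). The NF-kappaB genes Nfkb1 and Rela rose by 0.35 (SE 0.06, edgeR adjusted p = 1.07e-04) and 0.21 (SE 0.06, edgeR adjusted p = 0.011), and the Rela call did not hold in DESeq2 (adjusted p = 0.0887), after removal of the length and GC trend (edgeR adjusted p = 0.074) and without Dor WT replicate 2 (edgeR adjusted p = 0.0871) or Dor cKO replicate 2 (edgeR adjusted p = 0.129). Nlrc5, the transactivator of class I promoters, stood at 16 and 25 counts in Dor WT, against 49 and 38 counts in Dor cKO. Its groups did not overlap, as for 30.2% of all tested genes in this direction. Its log2 fold change was 0.99 (SE 0.39, edgeR adjusted p = 0.0566). It passed with a minimum of 1 CPM in 2 libraries (edgeR adjusted p = 0.0449) and with the coefficient of variation set (edgeR likelihood ratio test adjusted p = 0.0166). In TPM its mean was 1.22 ± 0.0424 in Dor WT and 1.01 ± 0.608 in Dor cKO (SD, n = 2 per group), since the length given for it differed from 1380 to 4829 bases among the libraries. Its values were -0.18 with limma on log2(TPM + 1) (adjusted p = 0.697) and 1.00 with DESeq2 (adjusted p = 0.187).

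Of 8 interferon receptor and kinase genes, 3 rose and 0 fell, with a median of 0.16; 2 rose with DESeq2 and 0 with limma. Jak1, a kinase of these receptors, rose by 0.20 (SE 0.04, edgeR adjusted p = 4.36e-05) and the receptor gene Ifnar1 by 0.18 (SE 0.04, edgeR adjusted p = 0.00127). Ifnar2, the second chain, rose by 0.21 (SE 0.07, edgeR adjusted p = 0.0254), a call lost without any 1 of the 4 libraries (edgeR adjusted p = 0.0504 to 0.129). Of 6 interferon genes looked up, 5 had 0 counts in all 4 libraries, and Ifng had 4 counts in Dor cKO replicate 1 and 0 in the others. A count of 0 allows up to 3 counts, or 0.139 to 0.174 CPM, for counting error only.

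Tap1 and Psmb9 are transcribed in opposite directions from one short interval, so their windows overlap by 225 bases. Their annotated spans also overlap from 34187553 to 34187764, and the posterior standard deviation of the count was the same in Tap1 and Psmb9 within each library, at 0.42 to 1.36 counts. That is at most 1.43% of the count of Psmb9. Although they start side by side, the level of Tap1 per transcript length was 11.4 TPM and that of Psmb9 4.47 TPM in Dor WT.

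Of the 10 genes, 8 lie within 2117 kb of the MHC on chromosome 17, from 33915899 to 36032855, among genes of other functions. In this span 85 other tested genes, not named H2-, counted 14 higher, 5 lower and 66 not past the threshold, with a median of 0.06. Their share of 16.5% higher is near the 14.3% of all tested genes. Of 16 other tested H2- genes there, class II genes included, 4 rose, 1 fell and 11 did not pass.

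**Figure D5:**
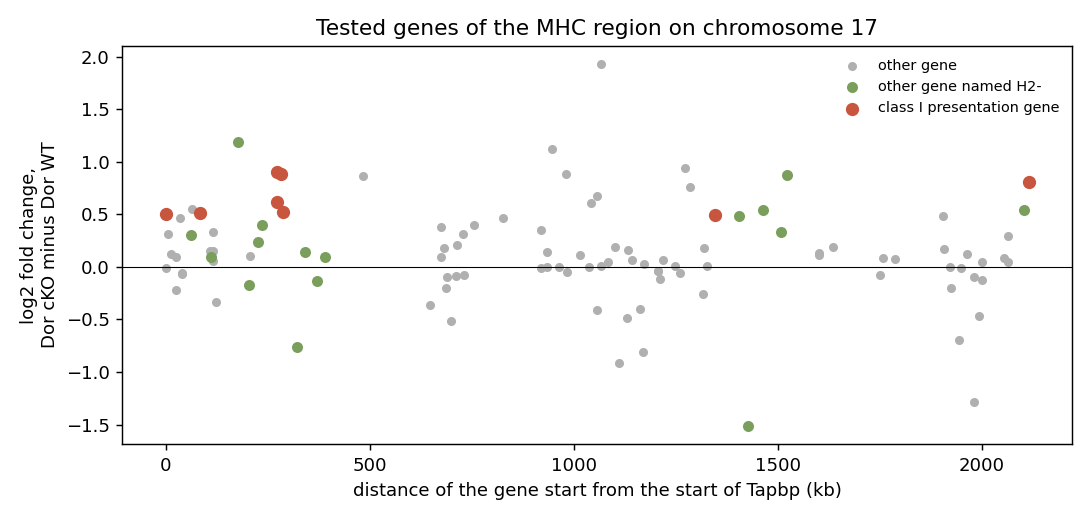
Log2 fold change (Dor cKO minus Dor WT) of the tested genes of the MHC region against the distance of each gene start from that of Tapbp, in kb. Red marks are the 8 class I presentation genes of the region, green marks other genes named H2- and grey marks the remaining 85, which are spread around a median of 0.06.

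MHC class II molecules present taken-up antigen on macrophages and other professional cells. Of 11 class II pathway genes, 3 rose, 0 fell and 8 did not pass, with a median of 0.14. The count of 3 was 1 with DESeq2, 0 with limma and 2 without Dor WT replicate 2, Dor cKO replicate 1 or Dor cKO replicate 2. The chain genes H2-Aa and H2-Ab1, named after their values were seen, had log2 fold changes of -0.13 (SE 0.08, edgeR adjusted p = 0.213) and 0.14 (SE 0.08, edgeR adjusted p = 0.173). Ctss, a protease of the class II pathway, rose by 0.28 (SE 0.05, edgeR adjusted p = 1.65e-05) and the invariant chain gene Cd74 by 0.24 (SE 0.07, edgeR adjusted p = 0.00527, DESeq2 adjusted p = 0.0571). H2-DMb1, which encodes a chain of a peptide exchange factor, rose by 0.40 (SE 0.14, edgeR adjusted p = 0.0254), a call that did not hold in DESeq2 (adjusted p = 0.144), nor without Dor WT replicate 2, Dor cKO replicate 1 or Dor cKO replicate 2 (edgeR adjusted p = 0.098 to 0.279).

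Markers of several cell types moved as well. Border macrophage markers summed to 152 to 158 TPM in Dor WT and 212 to 217 TPM in Dor cKO, and 6 of 6 rose with a median of 0.51, among them Mrc1 by 0.49 (SE 0.04) and F13a1 by 0.44 (SE 0.05). Fibroblast and meningeal markers summed to 4488 to 4505 TPM in Dor WT and 5767 to 5826 TPM in Dor cKO, with 7 of 7 higher and a median of 0.33. Endothelial markers summed to 135 to 138 TPM in Dor WT and 156 to 167 TPM in Dor cKO, with 4 of 8 higher (median 0.27). That count was 1 in DESeq2 and 2 without Dor cKO replicate 1 or Dor cKO replicate 2. Microglial markers summed to 775 to 781 TPM in Dor WT and 863 to 869 TPM in Dor cKO, with 5 of 9 higher and 1 lower (median 0.15). Astrocyte markers summed to 7343 to 7362 TPM in Dor WT and 7982 to 8007 TPM in Dor cKO, with 5 of 6 higher and 1 lower (median 0.28). Markers of B cells and granulocytes summed to 265 to 282 TPM in Dor WT and 327 to 335 TPM in Dor cKO, with 2 of 4 tested higher (median 0.37). Mural markers summed to 573.5 to 603 TPM in Dor WT and 704 to 712 TPM in Dor cKO, with 2 of 6 higher and 1 lower (median 0.09). Of oligodendrocyte precursor markers, 0 of 5 were higher and 3 lower (median -0.11), with 1 lower in DESeq2. Of neuron markers, 0 of 8 were higher and 1 lower (median -0.11). Erythroid markers had 0 of 5 higher and 2 lower (median -0.00589). The 10 class I presentation genes summed to 981 to 1005 TPM in Dor WT and 1310 to 1337 TPM in Dor cKO. With the coefficient of variation set at 0.1, 5 of the border macrophage, 2 of the fibroblast and meningeal, 0 of the endothelial, astrocyte and B cell and granulocyte markers and 1 of the microglial markers were higher. The part of these cell markers in the class I result was not tested.

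Most genes of T and natural killer cells were too low in counts to test. Of 17 genes of T and natural killer cells, 2 were tested and 0 were called by edgeR or DESeq2, nor did any reach an unadjusted p under 0.05. The summed level of the 17 was 4.03 to 6.01 TPM in Dor WT and 5.38 to 7.28 TPM in Dor cKO, ranges that overlap. Cd8a, named after its values were seen, stood at 2 and 0 counts in Dor WT, against 3 and 0 in Dor cKO, and Ncr1 had 0 in all 4 libraries. Cd4 stood at 52 and 39 counts in Dor WT, against 68 and 62 in Dor cKO (0.40, SE 0.30, edgeR adjusted p = 0.367), and Cd3e 11 and 8 against 11 and 25 counts (0.80, SE 0.60, edgeR adjusted p = 0.359).

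Over the 4 libraries, the genes outside the list whose centred log2 CPM came closest to the mean profile of the 10 were Ifitm1, Fes, Gria1, Tuba1c and Isyna1, at root mean square distances of 0.00706 to 0.0139. The 10 themselves lay at 0.0445 (H2-K1) to 0.161 (Psmb9) from that mean. With 4 libraries in 2 groups, this likeness is mostly a like fold change, and these 5 genes had log2 fold changes of 0.58 to 0.61.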

How the data were processed

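The authors deposited 1 RSEM gene table per library, with expected counts, posterior mean counts and TPM per the file headers. Reads were handled with RSEM 1.3.1, STAR 2.7.9a and Trimmomatic 0.36 on GRCm38, per the submitters' processing notes. Libraries were stranded per the labels' protocols. The annotation release and the strand setting of the counting are not given in the sources used here. Symbols and coordinates came from GENCODE on GRCm38 and matched 55141 of 55401 identifiers. The deposited expected counts (estimated counts) were rounded, filtered with filterByExpr (minimum count 10, minimum total 15), scaled by TMM and compared by the robust quasi-likelihood test of edgeR 4.0.16, with Benjamini-Hochberg adjustment over 16751 genes and a threshold of 0.05. SE is the size of the log2 fold change over the square root of F, and CPM uses TMM-scaled sizes. Deposited TPM served levels and ratios. Each library counted as 1 replicate. Library pairs of a group differed by more than sampling noise (chi-square per gene of 2.60 in Dor WT and 2.21 in Dor cKO). That cannot tell separate animals from repeat preparations of the same RNA. The common biological coefficient of variation in the edgeR fit was 0.0348. The fit was tested on data simulated with the spread estimated from these libraries. Of true log2 changes of 0.5 and 1, 59% and 75.8% were called in the right direction. There were 5 calls among 16272 unchanged genes. Such data cannot show whether that spread is too small.

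Named were the 10 genes, up to 4 called genes of highest CPM per pathway list, Psmb5, Psmb6, Psmb7, Nlrc5, Trp53inp2, up to 2 genes per marker list and the 5 genes of closest profile. Of the genes this rule names, 1 is not reported here. Members and lists were chosen with earlier results of these data known. Alternatives were DESeq2 1.42.0, limma 3.58.1 on log2(TPM + 1) and the settings given with their effect at the end.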

Additional observations from a re-analysis of the deposited data

How the results depend on the processing

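All 10 genes kept a positive fold change under each of 16 or 17 alternatives. Their count of 10 stood with DESeq2, RLE and total count scaling, other filters, a fit that is not robust, posterior mean counts, the length and GC trend removed and mitochondrial genes left out. It fell to 6 under limma on log2(TPM + 1) and to 8 where the coefficient of variation was set at 0.1. With limma the calls lost were H2-K1 (0.36, adjusted p = 0.0639), Tap2 (0.50, adjusted p = 0.0508), Psmb9 (0.68, adjusted p = 0.0549) and Psmb10 (0.26, adjusted p = 0.119). The length given for H2-K1 was 1268 bases in Dor WT replicate 1 and 1405 to 1436 bases in the others, which enters TPM but not counts. With the coefficient of variation set, those lost were B2m (0.39) and Psmb10 (0.36). Without 1 library each, the count was 8 to 10, Psmb9 ranged from 0.77 to 1.02 and Psmb10 from 0.28 to 0.44.

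Over all genes, 2399 were higher and 2248 lower, against 1549 and 1392 with DESeq2, 690 and 738 with limma, and 703 and 891 with the coefficient of variation set. Of 101 tested genes of the other pathway lists, 24 rose and 15 fell. These counts were 6 and 5 with limma and 9 and 1 with the coefficient of variation set, and 6 fell with DESeq2. Without 1 library each, 7 to 14 fell. Same-numbered libraries did not deviate together over all genes (r = -0.0121). A single value over all genes cannot show whether some genes share a pairing. With the replicate block, 2561 were higher and 2409 lower, and 10 of the 10 genes were higher. Of the other pathway genes that edgeR called and the report names, Fcgrt and H2-Q4 stayed called under each alternative. Low counts limit Psmb9 among the 10 genes, at 56 to 137 counts per library.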

Other observations

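Within the MHC region, several genes outside the class I presentation list and not named H2- also rose, and they were picked once their values were known. The complement genes Cfb and C2, which lie side by side, had log2 fold changes of 1.13 (SE 0.16, edgeR adjusted p = 1.92e-06) and 0.89 (SE 0.08), and C4b had 0.47 (SE 0.02). The heat shock genes Hspa1a and Hspa1b rose by 0.68 (SE 0.11) and 0.61 (SE 0.12). Of the 5 neighbours that fell, Atat1, which encodes a tubulin acetyltransferase, fell by 0.47 (SE 0.07) and Nrm by 0.69 (SE 0.14).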
